A study of Homo sapiens with 6 samples.

Results

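Aminoacyl-tRNA synthetases are the enzymes that join each amino acid to its transfer RNA, and 36 of their genes were followed here among the 16798 coding genes of the deposited gene table. The genes were chosen by name, as enzymes of this family, and the rule used no measured value, although earlier results of these data were known when the list was made. Of the 36 genes, 18 encode enzymes of the cytosol, 16 encode enzymes that are imported into mitochondria, and GARS1 and KARS1 encode both forms from one gene. All 36 were found in the table and all 36 passed the filter on low counts. The list does not cover every enzyme of the family.

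A synthetase activates its amino acid with ATP and passes it to the matching tRNA, which the ribosome then uses. Cells keep separate sets of these enzymes for the cytosolic ribosome and for the mitochondrial ribosome, which makes subunits of the respiratory chain, and both sets are encoded by nuclear genes. Several cytosolic enzymes sit together in a multisynthetase complex held by small scaffold proteins. When an amino acid runs short, uncharged tRNA activates the kinase GCN2, which raises translation of ATF4, and many cytosolic synthetase genes are known targets of ATF4.

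RNA-Seq was performed in COV434, a cell line that the labels describe as wild-type granulosa cells (GCs). The control group held 3 samples and the treated group 3 samples exposed to 15 µM 4HC, the active form of cyclophosphamide (CTX), for 24 h. Neither the control vehicle nor separate cultures are stated in the labels, so the p-values measure the spread between these samples, which may be technical. Because bulk RNA was sequenced, fewer cells of a type and less RNA per cell cannot be told apart. Each sample held 16133786 to 16702316 expected counts, and the 36 genes together took 0.475% to 0.521% of them. The label was checked against 12 granulosa cell markers, of which 10 were in the table and 3 (AMH, INHA and HSD17B1) exceeded a TPM of 1 in any sample (TPM is a level scaled for gene length and library size). FOXL2, FSHR and CYP19A1, which define the cell type, reached at most 0.11, 0.01 and 0.02 TPM. The summed granulosa marker level was 24.2 to 33.3 TPM in control and 28.0 to 29.3 TPM in 4HC samples. That of 4 stromal markers was 53.1 to 57.5 TPM and 53.1 to 55.9 TPM. Most of each sum came from 1 gene, HSD17B1 (mean 22.5 TPM in control and 22.2 TPM in 4HC samples) and LUM (43.2 and 42.1 TPM). The epithelial, theca and immune markers summed to at most 8.55, 1.34 and 3.16 TPM in any sample. No marker that could be tested passed the test, and the part of these markers in the results below was not tested.

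With 4HC, 22 of the 36 synthetase genes fell, 3 rose (SARS1, VARS2 and AARS2), and 11 did not pass the test. The changes were small: the largest fall was 21.9% in MARS1 and the largest rise 20.2% in SARS1. A gene was called at an adjusted p under 0.05 in edgeR's quasi-likelihood test over all 12368 genes tested. By that rule 36.4% of all genes tested were called, 19.2% as higher and 17.1% as lower, against 69.4% of the synthetase genes, 8.33% as higher and 61.1% as lower. The median log2 fold change of the 36 was -0.15, beside 0.00 over all genes tested, and 29 of the 36 lay below zero. At a fold of at least 2 with an unadjusted p under 0.05, where 1.15% of all genes passed (1.02% higher and 0.129% lower), none of the 36 did. At a log2 change of at least 0.2 in size with an adjusted p under 0.05, where 22.1% of all genes passed (13.9% higher and 8.19% lower), 13 of the 36 were lower and 1 was higher. The 3 control and the 3 4HC values did not overlap in 23 genes that were lower and 4 that were higher in 4HC. Over all genes tested, 21.9% did not overlap with lower and 23.4% with higher values in 4HC, 45.3% in all.

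The plot of single samples shows that the shift was shared by the 3 4HC samples in most cytosolic genes and was less regular among the mitochondrial ones. Replicates of a group differed by more than counting noise, with a chi-square per gene of 1.70 to 2.46, and the common biological coefficient of variation was 0.0277.

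Among the 18 cytosolic enzymes, 14 genes fell, SARS1 rose, and TARS3, HARS1 and QARS1 did not pass. The shares over all genes tested were 17.1% lower and 19.2% higher. The median log2 fold change of the 18 was -0.19. Values per sample are given in CPM, the count scaled to the size of its library. MARS1, which charges methionine to initiator and elongator tRNA, was at 214, 209.9 and 205 CPM in control and at 169, 159 and 163 CPM in 4HC samples. Every 4HC value lay below every control value, and the gene fell by 0.36 on the log2 scale (SE 0.0363, adjusted p 1.23e-11, edgeR). CARS1, which charges cysteine, gave 52.1, 55.6 and 51.0 CPM in control and 42.8, 39.2 and 43.0 CPM in 4HC samples. The groups were again apart, and the log2 fold change was -0.34 (SE 0.0539, adjusted p 8.57e-07, edgeR). VARS1, the valine enzyme, read 201, 210.2 and 206 CPM in control against 176, 169.8 and 149.96 CPM with 4HC. The third 4HC sample was the lowest of the 6 but all 3 were under the control range, for a log2 fold change of -0.32 (SE 0.0406, adjusted p 8.65e-09, edgeR).

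YARS1, the tyrosine enzyme, moved from 176, 179 and 178 CPM to 149.9, 144 and 149 CPM. Control and 4HC values each kept within a few CPM of one another, and the gene fell by 0.27 on the log2 scale (SE 0.0367, adjusted p 3.57e-08, edgeR). TARS1, which charges threonine, stood at 229, 213 and 215 CPM in control and 182, 189 and 191 CPM in 4HC samples. No values overlapped, with a log2 fold change of -0.23 (SE 0.0363, adjusted p 1.2e-06, edgeR). WARS1, the tryptophan enzyme and a gene known to be induced by interferon, was counted at 101, 103 and 99.9 CPM in control and 90.1, 84.7 and 84.5 CPM in 4HC samples. Its 4HC values were all lower, by -0.23 on the log2 scale (SE 0.0425, adjusted p 2.45e-05, edgeR).

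SARS1 was the exception. This gene encodes the serine enzyme, which also charges the tRNA that carries selenocysteine. It stood at 191, 189 and 186 CPM in control and 224, 225 and 231 CPM in 4HC samples. The 3 treated values lay above all controls, and the gene rose by 0.27 on the log2 scale (SE 0.0349, adjusted p 1.42e-08, edgeR), the only called rise among cytosolic enzymes.

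The other 8 cytosolic genes that fell did so by log2 fold changes of -0.21 to -0.08. They were FARSA, RARS1, IARS1, FARSB, AARS1, LARS1, NARS1 and EPRS1, and in none of them did the groups overlap. Both subunits of the phenylalanine enzyme moved alike, FARSA at -0.21 and FARSB at -0.19. The smallest of the falls, that of EPRS1, which joins glutamate and proline enzymes in one protein, had an adjusted p of 0.044 in edgeR's test. It did not pass without control replicate 1 (adjusted p 0.16), control replicate 3 (0.0938), 4HC replicate 1 (0.235) or 4HC replicate 2 (0.0526) in the same test. NARS1 did not pass without 4HC replicate 1 (adjusted p 0.0527, edgeR). HARS1 was level, with a 95% interval of its log2 fold change from -0.08 to 0.09, and that of QARS1 ran from -0.01 to 0.14, with 3 higher values in 4HC but an adjusted p of 0.153 in edgeR's test. TARS3, a second threonine enzyme that is close in sequence to TARS1, was at 8.38 to 9.89 CPM in control and 7.85 to 8.88 CPM in 4HC samples.

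The promoters of the synthetase genes were read for 2 words, from 250 bases before to 50 bases after the start in RefSeq (GRCh38.p14). The first was the core of the C/EBP-ATF response element (CARE), TGATGNAA on either strand, which ATF4 binds together with C/EBP proteins. The second was an NRF1-like word, GCGCANGC on either strand, named for a regulator of mitochondrial genes. Neither word can overlap the other, and 30 of the 36 genes had a promoter in the table. Those of AARS2, LARS1, TARS3, VARS1, VARS2 and YARS1 were not used here. The CARE core stood in 7 of the 30 promoters (23.3%), against 1.67% of the 10042 promoters of tested genes and 3.67% of all 27305 promoters of that length. Of these 7 genes, 6 were cytosolic and 1, YARS2, was mitochondrial. The windows are shown because they hold the word. Of the 7 genes 6 fell, beside 14 of the 18 cytosolic synthetase genes and 17.1% of all genes tested. They read 5′ to 3′ on the strand of the gene, with the CARE core in capitals. They lie on GRCh38.p14 at chr16:70289660-70289719 (minus strand) for AARS1, chr11:3057399-3057458 (minus) for CARS1, chr9:92293677-92293736 (minus) for IARS1, chr12:57488033-57488092 (plus) for MARS1, chr18:57621812-57621871 (minus) for NARS1, chr5:33440930-33440989 (plus) for TARS1 and chr12:32756061-32756120 (minus) for YARS2.
AARS1: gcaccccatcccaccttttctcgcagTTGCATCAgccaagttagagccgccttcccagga
CARS1: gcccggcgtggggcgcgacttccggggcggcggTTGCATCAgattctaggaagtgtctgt
IARS1: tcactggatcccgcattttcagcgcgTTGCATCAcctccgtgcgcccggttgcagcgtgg
MARS1: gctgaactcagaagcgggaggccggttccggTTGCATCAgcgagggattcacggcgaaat
NARS1: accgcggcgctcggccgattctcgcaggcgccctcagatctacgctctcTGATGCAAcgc
TARS1: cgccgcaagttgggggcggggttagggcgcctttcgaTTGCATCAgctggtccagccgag
YARS2: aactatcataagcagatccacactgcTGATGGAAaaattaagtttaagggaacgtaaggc

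In the 6 cytosolic genes the word was the same 8 bases, TTGCATCA or its reverse complement TGATGCAA, while YARS2 held TGATGGAA. Its first base lay 2 bases before the start in CARS1, 4 in MARS1, 13 in IARS1 and 187 in AARS1. In TARS1 and NARS1 it lay just inside the transcript, by the start used for the window, and in YARS2 197 bases upstream. The RefSeq gene span of TARS1 begins further upstream than that start, at chr5:33440696. All 6 cytosolic genes with the word fell, from -0.36 in MARS1 to -0.11 in NARS1 on the log2 scale, whereas YARS2 (-0.03, 95% interval -0.14 to 0.09) did not pass. Of the 8 other cytosolic genes with a promoter in the table, which lack the word, 5 also fell (EPRS1, FARSA, FARSB, RARS1 and WARS1). The share lower over all genes tested was 17.1%. Over the 168 tested genes with a CARE core the median log2 fold change was -0.04, beside 0.01 over tested genes whose promoter lacked it. A match is only a match of letters, and binding was not measured. Whether the CARE core goes with a fall was not tested.

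The NRF1-like word stood in 10 of the 30 promoters (33.3%), against 22.2% of the promoters of tested genes and 12.5% of all. Of the 10 genes 4 were cytosolic, 5 mitochondrial, and 1 was KARS1. The windows of SARS1, the gene with the largest rise, and MARS2, the mitochondrial gene with the largest fall, both held the word near the start. Both genes were picked by their changes, and whether the word goes with a change was not tested. For the 2230 tested genes with the word the median log2 fold change was 0.009, beside 0.003 for tested genes whose promoter lacked it. In these lines the capitals mark the NRF1-like word, which occurs on both strands in an overlapping run in MARS2. They lie at chr1:109213858-109213917 (plus) and chr2:197705334-197705393 (plus) of GRCh38.p14.
SARS1: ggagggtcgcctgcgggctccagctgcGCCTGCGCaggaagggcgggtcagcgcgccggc
MARS2: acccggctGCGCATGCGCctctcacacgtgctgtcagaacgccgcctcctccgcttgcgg

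HARS1 and HARS2, the cytosolic and mitochondrial histidine enzymes, are transcribed away from each other from starts 85 bases apart. The stretch that separates them, at chr5:140691370-140691454 (plus strand, as HARS2 is read), holds neither word and is printed because the pair shares it.
HARS2: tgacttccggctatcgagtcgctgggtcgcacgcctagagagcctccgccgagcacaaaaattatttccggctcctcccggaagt
HARS1 gave a log2 fold change of 0.01 and HARS2 one of -0.16 (adjusted p 0.0156, edgeR). The call on HARS2 was lost without control replicate 1 (adjusted p 0.065) and without 4HC replicate 1 (0.0751) in the same test. The 2 enzymes are closely related in sequence, and reads that match both would have been divided between them by the counting program.

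Among the 16 mitochondrial enzymes, 6 genes fell, 2 rose and 8 did not pass, beside 17.1% lower and 19.2% higher over all genes tested. The median log2 fold change of the 16 was -0.06, and without 4HC replicate 1 it was -0.12. MARS2, which charges mitochondrial methionine tRNA, was at 20.2, 22.3 and 19.7 CPM in control and 17.9, 17.1 and 14.5 CPM in 4HC samples. The third 4HC sample was the lowest and the groups were apart, with a fall of 0.33 on the log2 scale (SE 0.0792, adjusted p 0.000766, edgeR). NARS2, the asparagine enzyme, had 32.4, 31.8 and 33.2 CPM in control and 24.5, 27.9 and 28.6 CPM with 4HC. Here the first 4HC sample was the lowest, and the log2 fold change was -0.27 (SE 0.0631, adjusted p 0.000626, edgeR). EARS2, the mitochondrial glutamate enzyme, gave 45.2, 49.9 and 49.95 CPM in control and 40.5, 40.1 and 42.3 CPM in 4HC samples. Even its lowest control value exceeded every 4HC value, for a log2 fold change of -0.24 (SE 0.0545, adjusted p 0.000372, edgeR).

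IARS2, the mitochondrial isoleucine enzyme, read 324, 319 and 342 CPM in control and 283, 268 and 293 CPM in 4HC samples. The groups did not overlap, and the gene fell by 0.22 on the log2 scale (SE 0.0352, adjusted p 9.04e-07, edgeR). HARS2 and LARS2 completed the 6, and LARS2 (-0.13, adjusted p 0.0375, edgeR) rested on a narrow gap between 58.7 CPM in the lowest control and 58.6 CPM in the highest 4HC sample. It did not pass without control replicate 2 (adjusted p 0.094), control replicate 3 (0.199) or 4HC replicate 3 (0.167). The 8 that did not pass had log2 fold changes of -0.09 (RARS2) to 0.08 (PARS2). Among them FARS2 was spread over 13.9, 11.5 and 9.12 CPM and SARS2 over 28.1, 25.5 and 19.6 CPM in 4HC samples, both highest in the first and lowest in the third. Their control samples kept to 11.7 to 12.4 CPM and 24.8 to 26.5 CPM. Leaving out 1 sample at a time moved the log2 fold change of FARS2 from -0.23 to 0.08 and that of SARS2 from -0.18 to 0.08.

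GARS1 and KARS1, whose products serve both compartments, fell. GARS1, which charges glycine, was at 313, 292 and 304 CPM in control and 259.5, 253 and 269 CPM in 4HC samples. All treated values were lower, and the log2 fold change was -0.22 (SE 0.0346, adjusted p 1.15e-06, edgeR). KARS1, the lysine enzyme, changed by -0.14, from 253 ± 8.66 to 229.8 ± 1.44 CPM (SD, n = 3).

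**Figure D1:**
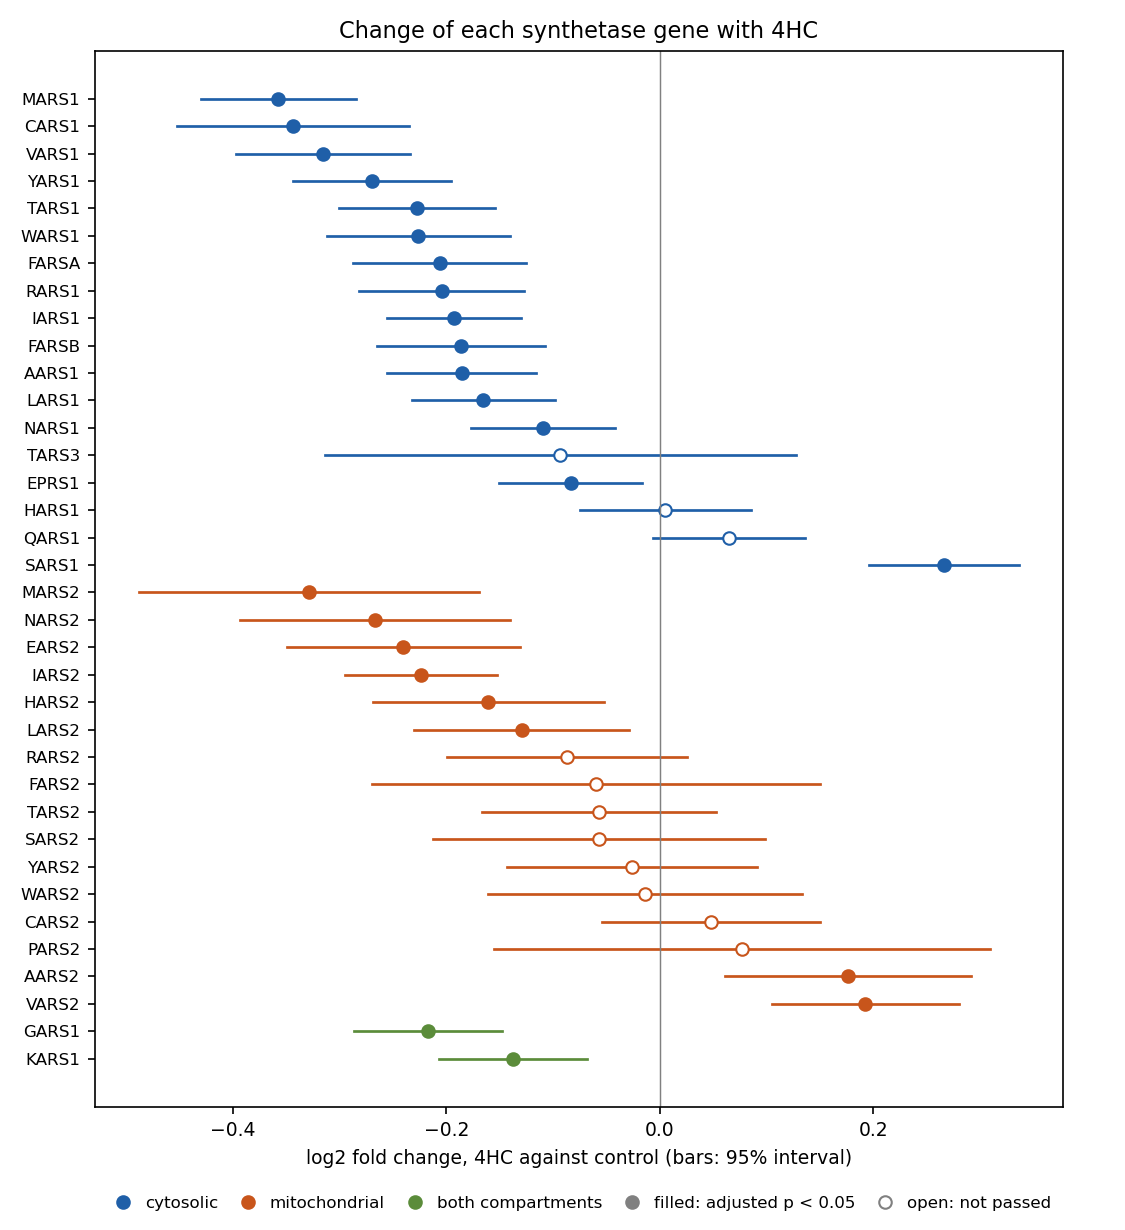
Log2 fold change of each synthetase gene, 4HC against control, with its 95% interval; filled points passed at an adjusted p under 0.05 and open points did not, and colours give the compartment. The values run from -0.36 (MARS1) to 0.27 (SARS1), with 15 of 18 cytosolic and 12 of 16 mitochondrial points below zero.

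In the plot of changes both sets lie mostly below zero, with medians of -0.19 for the cytosolic and -0.06 for the mitochondrial genes, and the difference between these medians was not tested. The compartments were then compared within each amino acid, which sets a cytosolic enzyme beside its mitochondrial partner in the same samples. There were 17 such pairs, with EPRS1 and FARS2 entering 2 each. In 5 pairs both genes fell, in 8 only the cytosolic gene was called and it fell, and in 2 the cytosolic gene fell and the mitochondrial gene rose. In the serine pair only SARS1 was called, and in the histidine pair only HARS2. A call also depends on the SE, which was larger in most mitochondrial genes. EPRS1 was called at a log2 fold change of -0.08 (SE 0.0334), whereas RARS2 was not at -0.09 (SE 0.0559). These counts alone therefore do not show a difference between compartments.

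The pairs with opposite calls were those for valine and alanine. VARS2 was at 78.6, 76.1 and 77.3 CPM in control and 90.2, 88.8 and 86.2 CPM in 4HC samples. Its groups were apart, and it rose by 0.19 on the log2 scale (SE 0.0435, adjusted p 0.000355, edgeR), while VARS1 fell as given above. The log2 ratio of VARS1 to VARS2 in CPM was 1.41 ± 0.055 in control and 0.90 ± 0.089 in 4HC samples (SD, n = 3), a change of -0.51. AARS2 was at 34.5, 37.7 and 36.7 CPM in control and 43.0, 41.5 and 38.5 CPM in 4HC samples, and it rose by 0.18 (SE 0.0575, adjusted p 0.013, edgeR). The groups were separated by less than 1 CPM, and the call on AARS2 was lost without control replicate 1 (adjusted p 0.0961), 4HC replicate 1 (0.0955) or 4HC replicate 2 (0.0518). AARS1, the alanine enzyme of the cytosol, had a log2 fold change of -0.19, and the log2 ratio of AARS1 to AARS2 went from 3.05 ± 0.080 to 2.68 ± 0.030.

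The log2 ratio of cytosolic to mitochondrial CPM did not overlap between the groups in 10 of the 17 pairs. The share over other gene pairs was not computed, and among single genes 45.3% did not overlap. It was lower with 4HC for alanine, arginine, cysteine, threonine, tryptophan, tyrosine and valine, and higher for asparagine, histidine and serine. For cysteine it changed by -0.39 and for serine by 0.34, although the 4HC samples of the serine pair were spread from 3.00 to 3.56. For methionine, where both genes fell most, it hardly moved (3.34 ± 0.095 and 3.32 ± 0.15). A two-sided exact permutation test of 3 against 3 samples cannot go below 0.1, which these 10 pairs reached, with an adjusted p of 0.17 over the 17, so no pair passed. These ratios are of CPM, not per length, so that only their change between groups can be read.

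Per length, the cytosolic genes were the more abundant set. In TPM, summed over the 18 cytosolic genes, control samples held 2187 to 2222 and 4HC samples 2000 to 2024, and over the 16 mitochondrial genes 527 to 541 and 486 to 499. The ratio of these sums was 4.09 to 4.22 in control and 4.06 to 4.11 in 4HC samples, so the groups overlapped in it. IARS2, which alone took a large part of the mitochondrial sum and fell, stood at 158 ± 6.82 TPM in control, and the next mitochondrial gene was CARS2 at 57.7 ± 2.14 TPM (SD, n = 3).

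In the plot of levels KARS1 (227 ± 9.30 TPM) and GARS1 (219 ± 8.61 TPM) led in control, with means that lay within their SDs. Sample by sample KARS1 was the higher, at 228.7, 216.9 and 235.2 against 226.3, 209.4 and 220.9 TPM. NARS1 (210.4 ± 4.01 TPM) and IARS1 (208 ± 6.28 TPM) came next, also within their SDs, and neither was the higher in every control sample. SARS1 followed in control at 181 ± 1.93 TPM and was at 217 ± 3.80 TPM in 4HC samples, above KARS1 at 205 ± 0.296 TPM. At the low end PARS2 (5.71 ± 0.333 TPM) and TARS3 (4.62 ± 0.292 TPM) were apart by more than their SDs in control. Of the 17 pairs, that for cysteine was the only one in which the cytosolic gene (CARS1, 36.8 ± 1.56 TPM in control) lay below its mitochondrial partner.

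Grouped by structure, 12 of the 18 members of catalytic class I fell and 1 rose, and their median log2 fold change was -0.20. Of the 17 members of class II, 9 fell and 2 rose, with a median of -0.11. EPRS1, which holds a domain of each class, was left out of both. The shares over all genes tested were 17.1% lower and 19.2% higher. Of the 7 enzymes of the multisynthetase complex, 6 fell (EPRS1, IARS1, KARS1, LARS1, MARS1 and RARS1) and QARS1 did not pass. The genes of its 3 scaffold proteins fell with them, AIMP2 by -0.27, EEF1E1 by -0.15 and AIMP1 by -0.13 on the log2 scale.

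Transcripts were less certain than genes, since the counting program divides reads between them, and the coefficient of variation was 0.724. Of 42216 transcripts tested, 1.29% were called, 0.706% as higher and 0.587% as lower. Of 121 tested transcripts of the synthetase genes, 1 was called higher and 4 lower by edgeR. They were NM_006513 of SARS1 (0.27, adjusted p 0.0083), NM_004990 of MARS1 (-0.36, 0.0166), NM_003680 of YARS1 (-0.28, 0.0191) and a pair of copies of NM_006295 of VARS1 with identical values (-0.44, 0.0491). None of these calls held in every other setting, as given below. NM_006513, NM_004990 and NM_003680 held 97.3%, 98.4% and 97.4% of their gene's control reads, so the gene value is in essence that of 1 transcript. VARS1 and VARS2 lie in a region with alternate contigs in the genome build, and the table listed the same transcript once per contig, with reads divided between copies. The copy of NM_006295 with the largest share of the gene's reads (27.6% in control) gave a log2 fold change of -0.07, with overlapping groups. Further copies gave -0.50 (adjusted p 0.122, edgeR) and did not pass. For VARS2, the pair of NM_020442 copies with the largest share (20.7% of control reads each) gave 0.15, with overlapping groups (adjusted p 0.883, edgeR). Other VARS2 transcripts gave log2 fold changes of -0.73 to 0.51, and none passed. CARS1 and SARS2 were also placed on alternate contigs.

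For KARS1, NM_005548 held 75.8% of control reads and went from 193 ± 6.99 to 170.1 ± 1.24 CPM (log2 fold change -0.18, adjusted p 0.0754, edgeR). NM_001130089 held 23.8% and stood at 60.6 ± 5.15 and 59.98 ± 0.629 CPM. Neither passed, and whether they changed unequally was not tested. The main transcript of GARS1, NM_002047, held 88.2% of control reads and had a log2 fold change of -0.21 (adjusted p 0.0709, edgeR). For WARS1, NM_173701 (78.1% of control reads) gave -0.24 (adjusted p 0.152, edgeR) and NM_213645 (14.3%) gave -0.01, with overlapping groups. The main transcript of NARS2, NM_024678 (60.8% of control reads), gave -0.06 (adjusted p 0.992, edgeR), with overlapping groups. No other tested transcript of NARS2 passed, so the fall of this gene is not seen in any single transcript by the test.

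Outside the enzymes, the steps around tRNA charging were mixed, where 17.1% of all genes tested were lower and 19.2% higher. None of the 4 genes that complete glutaminyl-tRNA and formyl-methionyl-tRNA in mitochondria passed (QRSL1, GATB, GATC and MTFMT, log2 fold changes -0.05 to 0.15). Of 5 genes of editing and of selenocysteine tRNA, 3 fell, which were DTD1 (-0.28), DTD2 (-0.24) and AARSD1 (-0.21), which clear wrongly charged tRNA. PSTK and SEPSECS, which turn the serine placed by SARS1 into selenocysteine, did not pass (0.21 and 0.02).

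Genes of the amino acid response, its sensors and targets, were read at the level of RNA. The activity of GCN2 and the translation of ATF4 were not measured. EIF2AK4, which encodes GCN2, fell from 491 ± 7.59 to 423 ± 11.2 CPM (log2 fold change -0.21, adjusted p 2.39e-07, edgeR), and the other 3 kinases of eIF2 alpha and GCN1 did not pass. Of 23 genes made up of ATF4 and known targets other than synthetases, 21 were tested. Of these, 8 fell and 3 rose, beside 17.1% lower and 19.2% higher over all genes tested. The median of the 21 log2 fold changes was -0.08. Among the called genes the largest changes were the rise of SESN2 (0.68, adjusted p 1.06e-18, edgeR) and the falls of CHAC1 (-0.46, 0.00164) and SLC7A5 (-0.35, 1.91e-10). SESN2 encodes sestrin 2, a leucine sensor that is also a target of p53, CHAC1 an enzyme that degrades glutathione, and SLC7A5 a transporter of large neutral amino acids. ATF4 itself, chosen after its values were seen, fell from 340.4 ± 5.52 to 285 ± 6.73 CPM (-0.26, adjusted p 1.04e-08, edgeR). The other 2 genes that rose, DDIT3 (0.25) and SHMT2 (0.11), were also named after their values were seen.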

How the data were processed

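The authors filtered reads with SOAPnuke and used the Dr. Tom system, per the labels. The submitters' processing notes list HISAT2, Bowtie2, RSEM 1.3.1, DESeq2 1.4.5 and the build GRCh38.p13. The authors deposited an expected count, a TPM and an FPKM value for each of 16798 genes and 79213 transcripts in 6 samples. Of the deposited expected counts of genes, 85.5% were whole (tolerance 1e-09). Columns of the authors' comparison (log2 fold changes, p and q values) were not used, nor was a second gene table that held the same values.

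Expected counts were rounded, filtered with filterByExpr, scaled by TMM and tested with edgeR 4.0.16 (glmQLFit, glmQLFTest; R 4.3.3), 3 control against 3 4HC samples with no covariate, with Benjamini-Hochberg adjustment over all genes tested. CPM are counts scaled to the TMM-normalised library size. Deposited TPM gave levels between genes, and deposited TPM and FPKM entered limma 3.58.1 as alternatives on log2(value + 1), for TPM also with 0.1. Other alternatives were DESeq2 1.42.0, its size factors, library size only, no filter, at least 10 counts in every sample, a replicate block and leaving out each sample. Python 3.11.15, pandas 2.3.3 and matplotlib 3.10.9 were used. Promoters came from RefSeq (GRCh38.p14).

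The 36 genes and the other lists were chosen with earlier results of these data known. Values in every sample were given for the 12 called synthetase genes with the largest absolute log2 fold change, the others by range or beside their partner, and up to 3 called genes were named in any other list, or all genes of lists of up to 5. In the deposited table, 4 of the 36 genes (CARS1, SARS2, VARS1 and VARS2) were placed on alternate contigs. Depth was 16133786 to 16702316 expected counts per sample, which gave 116 to 9413 counts for a synthetase gene in a sample. The values of 1 gene in a list outside the synthetases are not reported here.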

Additional observations from a re-analysis of the deposited data

How the results depend on the processing

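Of the 25 synthetase genes called, 20 held their direction and call in all 15 other settings, and none reversed. EPRS1 was lost in 9 settings, AARS2 and LARS2 in 7 each, HARS2 and NARS1 in 2 each, and no further gene was gained. Called mitochondrial rises were 2, and 1 with DESeq2 and with limma on log2(TPM + 1), log2(TPM + 0.1) and log2(FPKM + 1), and 1 to 2 on leaving out single samples. The mitochondrial median of -0.0584 was -0.0886 with limma on log2(TPM + 1), -0.0946 on log2(TPM + 0.1), and -0.116 to -0.0490 on leaving out single samples. All genes lower numbered 2118, and 1343 with limma on FPKM. At a fold of at least 2, 126 genes were higher and 16 lower, with 0 synthetase genes in either direction, cytosolic or mitochondrial. Called synthetase transcripts numbered 1 higher and 4 lower, against 11 lower with at least 10 counts in every sample and 0 in both directions with a replicate block. The cause of these shifts was not tested. Same-numbered samples did not deviate together (r -0.02, 0.05 and 0.07), so the numbers were not treated as pairs. With the replicate block, 2259 genes were higher and 1954 lower, and not every sample correlated best with its own number. Without a block, 2379 were higher. With 3 samples a group, outliers were not tested, and depth limits the low genes most, with 95% intervals of the log2 fold change of -0.31 to 0.13 for TARS3 and -0.16 to 0.31 for PARS2.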

Other observations

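Before charging, tRNA is cut, spliced and exported. Of 14 genes of tRNA maturation and export, 5 fell and 2 rose, and their log2 fold changes had a median of -0.05, beside 17.1% lower and 19.2% higher over all genes tested. CLP1, an RNA kinase, rose from 24.2 ± 1.23 to 30.5 ± 2.17 CPM (0.33, adjusted p 4.48e-05, edgeR). XPOT, the exporter of mature tRNA from the nucleus, fell from 352 ± 10.1 to 292 ± 12.1 CPM (-0.27, adjusted p 7.51e-09, edgeR).

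Of 10 translation factors of mitochondria, the elongation factor genes GFM1 (-0.25, adjusted p 2.18e-05, edgeR) and TSFM (-0.16, 0.021) fell. The other 8 did not pass, beside 17.1% lower and 19.2% higher over all genes tested. The median log2 fold change of the 10 was -0.06. This value is close to the median of the mitochondrial synthetases, and the difference was not tested.

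Some synthetase genes share a start region with a gene on the other strand. WARS1 fell by 0.23 on the log2 scale, while WDR25, whose start lies 158 bases away, rose by 0.34 (adjusted p 0.0354, edgeR). EARS2 and its neighbour UBFD1 both fell (-0.24 and -0.12). KARS1 fell by 0.14 and TERF2IP, 108 bases away, had a log2 fold change of -0.05 that did not pass. SARS2 did not pass, and MRPS12, a ribosomal protein gene of mitochondria 181 bases away, fell by 0.15 (adjusted p 0.0232, edgeR). Whether the partners differ was not tested.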
